A study of Arabidopsis thaliana with 38 samples.

Results

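The photosystems are the thylakoid complexes that turn light into electron flow. Photosystem II (PSII) oxidises water at its oxygen-evolving complex, and photosystem I (PSI) passes the electrons on to ferredoxin. Each is fed by chlorophyll-binding antenna proteins, the LHCB family mainly at PSII and the LHCA family at PSI. The reaction centre proteins are encoded in the plastid, while the antennae and many other subunits are encoded in the nucleus and imported. Arabidopsis embryos green during their development, so that nuclear transcripts of these subunits are made within the seed. The 42 nuclear genes described here are LHCA1 to LHCA6, the LHCB1 to LHCB6 genes, and nuclear genes of PSI (PSA) and PSII (PSB) subunits, chosen by name from a fixed list of loci. The list was chosen with earlier results of these data known, so its counts beside the share of all loci are description. All 42 were among the 27826 loci on the array, and no filter removed any.

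The values come from 38 single-channel arrays hybridised with nuclear RNA from Arabidopsis thaliana embryos. Nuclei were taken by INTACT, which captures on beads those nuclei whose envelope carries a tag; the promoters that drove the tag are not given in the labels used here. Embryos were collected after hand pollination from plants grown on soil at 22°C in long days, and no genotype or treatment that differs between groups is labelled. The 16-cell stage, at 72 h, has 3 arrays of the inner lower tier (ILT_16C) and 3 of whole embryos (EMB_16C). At 81 h (early globular stage) they were vascular cells (VSC_EG, 4), ground tissue (GSC_EG, 4), the suspensor (SUS_EG, 3), the filament that anchors the embryo, and the whole embryo (EMB_EG, 4). At 100 h (late globular stage) they were vascular cells (VSC_LG, 4), ground tissue (GSC_LG, 3), suspensor (SUS_LG, 3), the group labelled QC (QC_LG, 3), which in the root is the quiescent centre, and the whole embryo (EMB_LG, 4). Arrays of a group were biological replicates, each of pooled material, and the p-values rest on the spread between pools.

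Values are log2 intensities, and differences are the first group minus the second with the standard error (SE) of limma, fitted across all arrays and loci. Called means an adjusted p (Benjamini-Hochberg, over the 27826 loci) under 0.05. A gene that fell in a cell type was lower there than in the whole embryo of the same stage, unless stages are compared. Counts at an unadjusted p under 0.05 are given as description, without the share of all loci beside them. Where nothing differs, a share of about 0.05 passes that cut-off. Array medians lay between 2.47 and 2.71 and interquartile ranges between 1.03 (QC_LG 2) and 2.1 (ILT_16C 1). QC_LG stood apart, with the lowest mean correlation of its arrays with each other (0.68, against 0.74 to 0.85 in the other groups). The markers of the labelled cell types were weak checks of the sorts: of 12 vascular markers 0 were called in VSC_EG and 1 in VSC_LG (LOG4, higher by 2.37, where 0.413% of all loci were called higher), and of 6 ground tissue, 6 suspensor and 7 quiescent centre markers 0 were called against the whole embryo. Marker list means went both ways. Ground tissue markers averaged 2.73 in GSC_EG against 3.08 in EMB_EG, and 3.68 in GSC_LG against 3.34 in EMB_LG. Quiescent centre markers averaged 2.85 in QC_LG against 2.88 in EMB_LG and 3.26 in GSC_LG. Suspensor markers averaged 2.56 in SUS_EG against 2.19 in EMB_EG, and 2.62 in SUS_LG against 2.5 in EMB_LG. Vascular markers averaged 2.97 in VSC_EG against 2.77 in EMB_EG, and 3.2 in VSC_LG against 3.05 in EMB_LG. In bulk RNA, fewer cells of a type and less RNA per cell cannot be told apart.

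Where photosystem and antenna genes were called between a sorted cell type and the whole embryo, they were lower in the cell type, with median differences further below 0 at 100 h than at the earlier times. The change of these differences from 81 h to 100 h had 0 of 42 genes called in vascular cells, ground tissue or suspensor. QC_LG had no group at 81 h. The mean log2 intensity of the 42 genes was 4.88 ± 0.02 in ILT_16C (SD, n = 3), against 5.38 ± 0.25 in EMB_16C (n = 3). At 81 h it was 4.95 ± 0.29 in VSC_EG (n = 4), 5.22 ± 0.29 in GSC_EG (n = 4) and 5.63 ± 0.24 in SUS_EG (n = 3), against 5.95 ± 0.2 in EMB_EG (n = 4). At 100 h it was 4.3 ± 0.2 in VSC_LG (n = 4), 4.17 ± 0.09 in GSC_LG (n = 3), 4.02 ± 0.25 in SUS_LG (n = 3) and 3.76 ± 0.14 in QC_LG (n = 3), against 5.59 ± 0.21 in EMB_LG (n = 4). Each cell type lay wholly below the whole embryo of its stage except SUS_EG, whose arrays (5.35 to 5.79) overlapped those of EMB_EG (5.69 to 6.11). The group order at 100 h ran downwards from VSC_LG to QC_LG, where the ranges of VSC_LG, GSC_LG and SUS_LG overlapped one another and that of QC_LG overlapped SUS_LG.

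**Figure D1:**
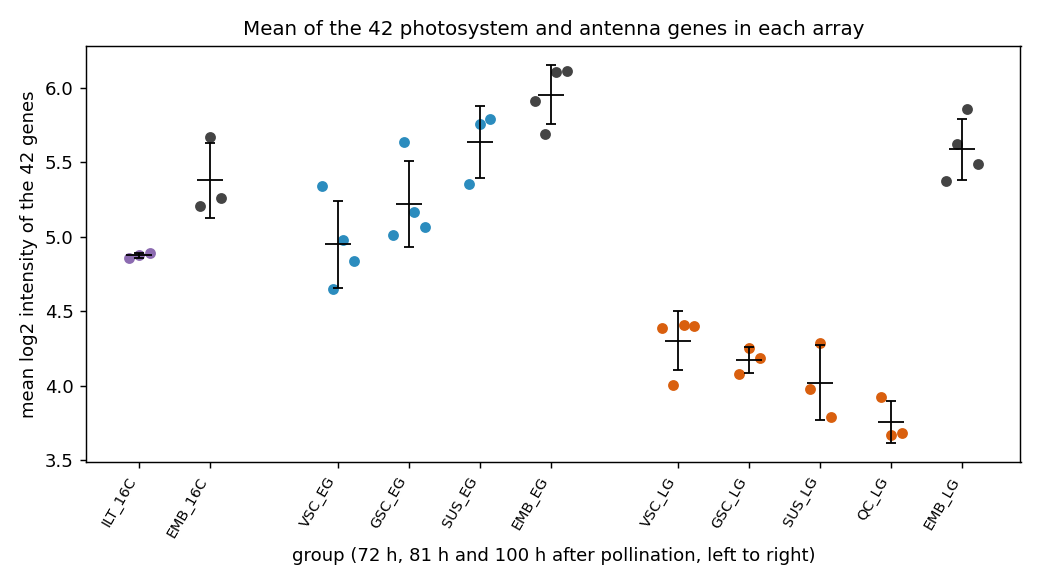
Each point is the mean log2 intensity of the 42 photosystem and antenna genes in 1 array, by group, with the group mean and SD in black. At 100 h the 13 arrays of the sorted cell types sit between 3.67 and 4.41, all below the 4 whole-embryo arrays (5.38 to 5.86), whereas at 81 h the suspensor arrays overlap the whole embryo.

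Over the 8 comparisons with the whole embryo, 83 pairs of gene and comparison were called, all of them lower in the cell type. Calls kept in all settings run were 4 of 11 in VSC_EG, 0 of 5 in GSC_EG and 0 of 1 in ILT_16C. In VSC_LG 5 of 11 were kept, in GSC_LG 1 of 11, in SUS_LG 4 of 18 and in QC_LG 7 of 26. Of the 42 genes, 15 were never called, 5 were called in 1 comparison, 7 in 2, 4 in 3, 4 in 4 and 6 in 5 (LHCA4, LHCB1.4, LHCB2.2, LHCB4.2, PSAE-1 and PSBR), and PSAK was called in 6. PSBO1 and PSBW were not called everywhere. Their arrays lay below all whole-embryo arrays of the same stage in 8 of 8 comparisons, a pattern not counted over all loci. The comparisons of 1 stage share the whole-embryo arrays, so repeated calls of a gene are not independent. The number of comparisons in which a locus was called was not counted over all loci.

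At 72 h the inner lower tier had 1 of 42 genes called, PSAK, against 0.155% of all loci called lower. The median difference of the 42 was -0.43, beside -0.02 for all loci. For 8 genes all ILT_16C arrays lay below all EMB_16C arrays, a pattern that 6.15% of all loci showed. The count was 0 when only the 6 arrays of the 2 groups were fitted.

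At 81 h vascular cells had 11 of 42 genes called lower, where 1.19% of all loci were, with a median of -0.96 beside -0.01 for all loci. Ground tissue had 5 called, where 0.428% of all loci were, and a median of -0.62 beside -0.06. The suspensor had 0 called by limma, where 0.0719% of all loci were called lower, with 6 genes at an unadjusted p under 0.05 (5 of them lower) and a median of -0.34. The arrays lay wholly below EMB_EG for 15 genes in VSC_EG (4.47% of all loci), 13 in GSC_EG (3.96%) and 6 in SUS_EG (4.36%). The VSC_EG count was 4 without VSC_EG 2, 6 without VSC_EG 3, 7 without EMB_EG 1 or EMB_EG 4, 5 without EMB_EG 3, 7 after quantile normalization and 6 when only the compared arrays were fitted. The GSC_EG count was 1 without GSC_EG 1 or EMB_EG 4, 2 without EMB_EG 3, and 3 without GSC_EG 3, GSC_EG 4, EMB_EG 1 or EMB_EG 2 or when only the compared arrays were fitted, and it was 11 with array weights; the suspensor count was 1 without SUS_EG 2.

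At 100 h 11 genes were called lower in vascular cells, where 0.374% of all loci were, and 11 in ground tissue, where 0.133% were. In the suspensor 18 were called, where 0.428% of all loci were, and in QC_LG 26, where 0.765% were. The median differences were -1.38 in VSC_LG, -1.26 in GSC_LG, -1.59 in SUS_LG and -1.76 in QC_LG, while the medians of all loci lay between -0.1 (GSC_LG) and 0.02. After centring of each array on its median that of GSC_LG was -0.02. Every one of the 42 estimates was below 0 in GSC_LG, SUS_LG and QC_LG, and 41 were in VSC_LG, where LHCB2.1 was at 0.16. The arrays lay wholly below EMB_LG for 24 genes in VSC_LG (3.11% of all loci), 32 in GSC_LG (8.67%), 33 in SUS_LG (5.4%) and 31 in QC_LG (5.03%).

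Whichever single array was left out, the counts were smaller in GSC_LG (3 to 9), SUS_LG (7 to 12) and QC_LG (17 to 25). Those of VSC_LG ran from 5 to 13. The medians at 100 h stayed at or below -1.17. The VSC_LG count was 5 without VSC_LG 2 or EMB_LG 3, 13 without VSC_LG 4 and 21 with array weights. The GSC_LG count was 4 without GSC_LG 1, GSC_LG 3 or EMB_LG 3, 3 without GSC_LG 2 and 6 without EMB_LG 2, and it was 1 with the interquartile range of each array as a covariate and 6 when only the compared arrays were fitted. The SUS_LG count was 7 without SUS_LG 3, 9 without EMB_LG 3, 10 without SUS_LG 2 and 11 without SUS_LG 1, EMB_LG 1 or EMB_LG 2, and 9 when only the compared arrays were fitted. The QC_LG count was 17 without QC_LG 3, and 7 when only the arrays of QC_LG and EMB_LG were fitted.

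Bright loci as a class, a set chosen after the data were seen, had medians nearer 0. The 2783 loci with the highest mean intensity over all arrays held 28 of the 42 genes. The median difference of these loci from the whole embryo at 100 h was -0.16 in VSC_LG, 0.29 in GSC_LG, 0.03 in SUS_LG and -0.36 in QC_LG. Of these bright loci 5.17% were called lower in QC_LG, 2.16% in SUS_LG, 0.539% in GSC_LG and 2.12% in VSC_LG, and they include the photosystem genes themselves.

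**Figure D2:**
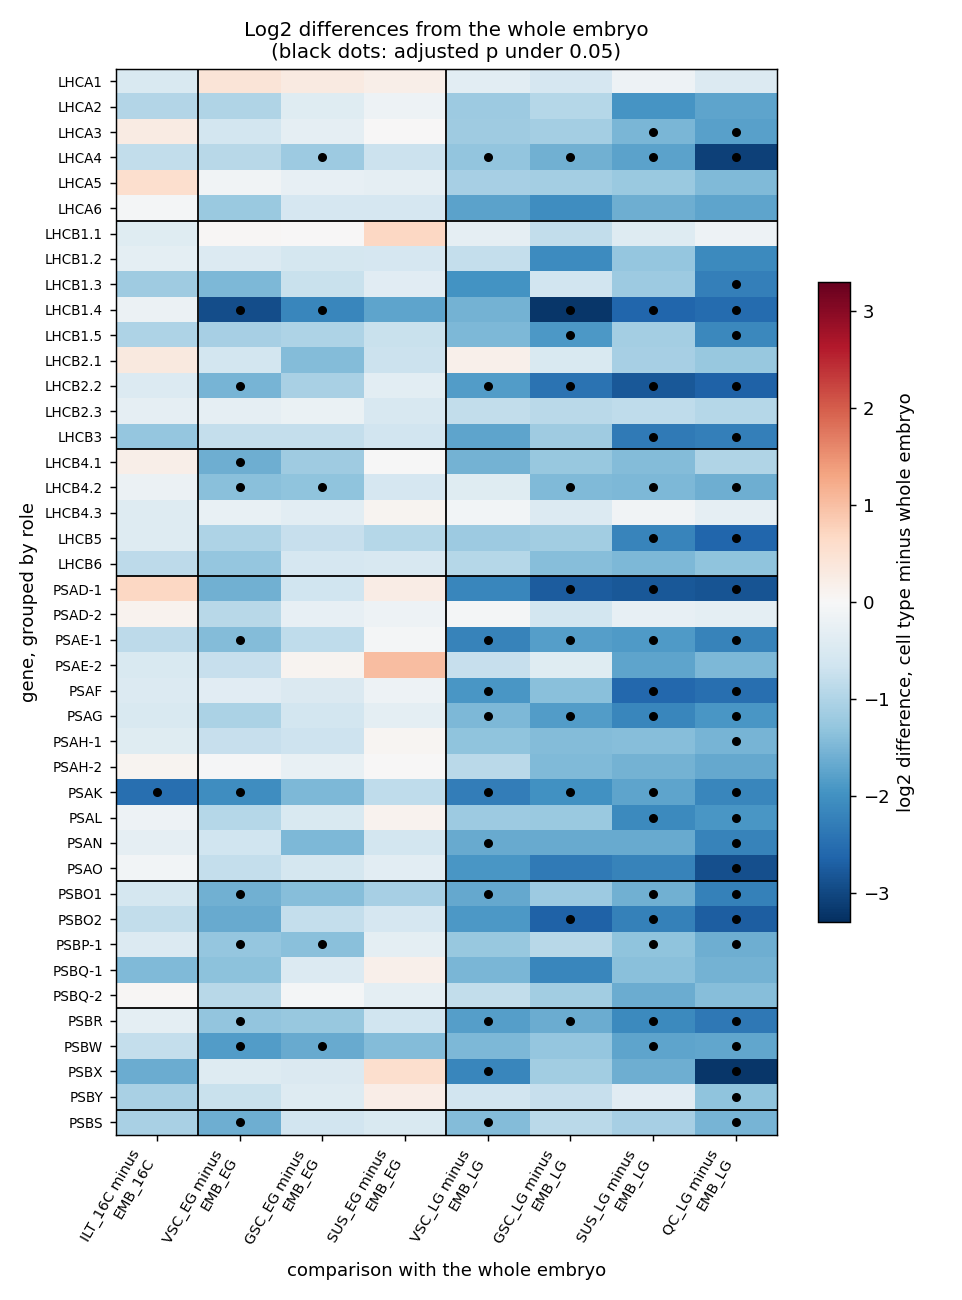
Colours give the log2 difference of each of the 42 genes (rows, grouped by role) between a cell type and the whole embryo of its stage (columns), with blue for lower in the cell type; black dots mark an adjusted p under 0.05. The 100 h columns are blue in nearly every row and hold 11, 11, 18 and 26 dots, against 11, 5 and 0 in the 81 h columns and 1 at 72 h.

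The PSI antenna is built mainly from LHCA1 to LHCA4, while LHCA5 and LHCA6 are minor members that link PSI to the NDH complex. LHCA4 (AT3G47470) had log2 intensities of 6.65, 6.57 and 5.97 in ILT_16C, against 6.58, 7.53 and 7.55 in EMB_16C at 72 h. At 81 h its log2 intensity was 7.18, 6.76, 7.89 and 6.62 in VSC_EG, 6.14, 6.98, 7.46 and 6.69 in GSC_EG and 7.08, 7.6 and 7.27 in SUS_EG, against 7.93, 7.62, 8.25 and 8.27 in EMB_EG. At 100 h it was 6.55, 5.78, 5.77 and 6.55 in VSC_LG, 6.11, 5.94 and 5.62 in GSC_LG, 5.92, 6.02 and 5.2 in SUS_LG and 4.99, 4.07 and 4.13 in QC_LG, against 7.59, 7.59, 7.3 and 7.41 in EMB_LG. The QC_LG arrays were the lowest of all 38 and did not overlap any other group; LHCA4 was 8.43-fold lower there than in EMB_LG (log2 difference -3.08, SE 0.34, adjusted p = 1.8e-06). It was also lower in GSC_EG (-1.2, adjusted p = 0.047), VSC_LG (-1.31), GSC_LG (-1.58) and SUS_LG (-1.76).

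LHCA3 (AT1G61520) gave 4.4, 4.59 and 3.77 in ILT_16C, against 3.68, 4.73 and 3.49 in EMB_16C at 72 h. The 81 h levels were 4.52, 4.33, 3.8 and 3.96 in VSC_EG, 3.63, 4.51, 4.88 and 4.89 in GSC_EG and 4.71, 4.41 and 5.23 in SUS_EG, against 4.85, 4.63, 5.2 and 4.38 in EMB_EG. At 100 h the levels were 3.71, 3.83, 3.13 and 3.34 in VSC_LG, 3.03, 3.97 and 3.69 in GSC_LG, 2.97, 2.71 and 3.82 in SUS_LG and 2.72, 3.5 and 2.5 in QC_LG, against 4.76, 4.77, 4.64 and 4.57 in EMB_LG. The groups overlapped at 72 h and 81 h, and at 100 h all 13 cell type arrays were below the 4 EMB_LG arrays; LHCA3 fell in SUS_LG (-1.52, SE 0.35, adjusted p = 0.025) and QC_LG (-1.78, adjusted p = 0.0048). LHCA2 (AT3G61470) was below 0 in all 8 comparisons without a call, at -1.95 in SUS_LG (adjusted p = 0.06). LHCA6 (AT1G19150) had its lowest estimate in GSC_LG (-2.06, adjusted p = 0.16) and LHCA5 (AT1G45474) in QC_LG (-1.47, adjusted p = 0.052). LHCA1 (AT3G54890) had differences of -0.55 to 0.42 and no call.

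The major PSII antenna is the trimeric complex of LHCB1, LHCB2 and LHCB3 proteins. LHCB1.4 (AT2G34430) had log2 intensities of 4.23, 5.83 and 5.03 in ILT_16C, against 4.57, 5.61 and 5.48 in EMB_16C at 72 h. At 81 h they were 4.82, 4.55, 4.74 and 4.16 in VSC_EG, 4.86, 6.13, 5.04 and 5.38 in GSC_EG and 4.48, 7.25 and 5.56 in SUS_EG, against 7.37, 7.68, 7.62 and 7.29 in EMB_EG. At 100 h they were 5.28, 4.71, 5.33 and 4.54 in VSC_LG, 2.77, 3.48 and 3.73 in GSC_LG, 4.2, 4.84 and 2.7 in SUS_LG and 4.54, 3.65 and 3.77 in QC_LG, against 7.11, 5.89, 6.27 and 6.82 in EMB_LG. The 4 EMB_EG arrays lay above every other array of the gene, and SUS_EG spread over 2.77 log2 units between its arrays. LHCB1.4 fell 7.59-fold in VSC_EG (-2.92, SE 0.45, adjusted p = 0.00043), 4.41-fold in GSC_EG (-2.14) and 9.17-fold in GSC_LG (-3.2, SE 0.48, adjusted p = 0.0014). It also fell in SUS_LG (-2.61) and QC_LG (-2.54), and was at -1.56 in VSC_LG without a call.

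LHCB2.2 (AT2G05070) had 4.96, 5.56 and 5.15 in ILT_16C, against 5.71, 5.81 and 5.47 in EMB_16C at 72 h. The 81 h arrays had 7.17, 4.32, 4.8 and 4.77 in VSC_EG, 5.27, 6.22, 5.37 and 6.1 in GSC_EG and 6.26, 6.4 and 6.73 in SUS_EG, against 6.62, 6.42, 7.06 and 7.12 in EMB_EG. The 100 h arrays had 5.35, 4.21, 4.07 and 4.55 in VSC_LG, 4.21, 3.59 and 4.1 in GSC_LG, 4.01, 2.93 and 3.85 in SUS_LG and 3.49, 3.78 and 3.9 in QC_LG, against 6.29, 6.5, 6.5 and 6.29 in EMB_LG. VSC_EG 1, at 7.17, lay above all EMB_EG arrays and the other 3 lay below them, while no array overlapped EMB_LG at 100 h. LHCB2.2 fell 6.95-fold in SUS_LG (-2.8, SE 0.42, adjusted p = 0.0004), 6.37-fold in QC_LG (-2.67), 5.39-fold in GSC_LG (-2.43) and 3.6-fold in VSC_LG (-1.85). In VSC_EG it was called at -1.54 (adjusted p = 0.028) with the overlapping array included.

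LHCB1.5 (AT2G34420), the neighbour of LHCB1.4 on chromosome 2, gave 5.95, 6.6 and 6.59 in ILT_16C, against 7.66, 7.31 and 7.23 in EMB_16C at 72 h. For 81 h it gave 6.48, 6.2, 7.11 and 6.78 in VSC_EG, 7.1, 6.48, 6.9 and 6.45 in GSC_EG and 7.0, 6.86 and 7.13 in SUS_EG, against 7.84, 7.68, 8.56 and 6.88 in EMB_EG. For 100 h it gave 6.13, 5.93, 5.54 and 5.87 in VSC_LG, 5.5, 5.64 and 5.24 in GSC_LG, 6.17, 6.3 and 6.19 in SUS_LG and 5.59, 6.03 and 3.99 in QC_LG, against 6.92, 7.52, 8.62 and 6.32 in EMB_LG. All cell type arrays were below EMB_LG, whose own arrays spread widely; the gene fell in GSC_LG (-1.88, SE 0.41, adjusted p = 0.023) and QC_LG (-2.14, adjusted p = 0.0042). LHCB3 (AT5G54270) fell in SUS_LG (-2.33) and QC_LG (-2.26), and LHCB1.3 (AT1G29930) in QC_LG (-2.26, adjusted p = 0.031). LHCB1.2 (AT1G29910) was at -2.11 in QC_LG (adjusted p = 0.065) and -2.08 in GSC_LG. LHCB1.1 (AT1G29920), LHCB2.1 (AT2G05100) and LHCB2.3 (AT3G27690) were not called in any of the 8 comparisons, with lowest estimates of -0.81, -1.44 and -0.95.

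The minor PSII antennae LHCB4, LHCB5 and LHCB6 are monomers that connect the trimers to the core. LHCB5 (AT4G10340) had 5.82, 6.83 and 6.62 in ILT_16C, against 6.71, 6.42 and 7.38 in EMB_16C at 72 h. At 81 h its values were 6.17, 6.19, 6.85 and 6.58 in VSC_EG, 6.22, 7.27, 6.5 and 6.76 in GSC_EG and 6.7, 6.59 and 6.28 in SUS_EG, against 7.51, 7.57, 7.37 and 7.38 in EMB_EG. At 100 h its values were 6.46, 4.79, 6.21 and 4.84 in VSC_LG, 5.41, 6.32 and 5.09 in GSC_LG, 4.42, 5.1 and 4.29 in SUS_LG and 4.05, 3.38 and 4.99 in QC_LG, against 6.71, 6.35, 7.24 and 6.77 in EMB_LG. At 81 h all cell type arrays were below EMB_EG, with no call. It fell 6.17-fold in QC_LG (-2.62, SE 0.39, adjusted p = 0.0003) and 4.49-fold in SUS_LG (-2.17, adjusted p = 0.004).

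LHCB4.2 (AT3G08940) had 3.52, 4.4 and 3.75 in ILT_16C, against 3.94, 4.39 and 3.92 in EMB_16C at 72 h. At 81 h it stood at 3.14, 3.82, 3.43 and 3.51 in VSC_EG, 3.6, 4.03, 3.4 and 3.12 in GSC_EG and 4.14, 4.56 and 4.21 in SUS_EG, against 4.65, 4.73, 4.75 and 5.32 in EMB_EG. At 100 h it stood at 4.16, 4.07, 4.35 and 3.17 in VSC_LG, 2.51, 2.93 and 3.16 in GSC_LG, 2.97, 2.71 and 2.89 in SUS_LG and 3.06, 2.58 and 2.55 in QC_LG, against 3.93, 4.15, 5.26 and 4.0 in EMB_LG. All 11 cell type arrays at 81 h were below EMB_EG, and at 100 h VSC_LG overlapped EMB_LG while the other groups did not. The gene fell in VSC_EG (-1.39, SE 0.29, adjusted p = 0.0086), GSC_EG (-1.33), GSC_LG (-1.47), SUS_LG (-1.48) and QC_LG (-1.6), and was at -0.4 in VSC_LG.

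LHCB4.1 (AT5G01530) read 6.01, 5.24 and 5.55 in ILT_16C, against 4.88, 5.94 and 5.43 in EMB_16C at 72 h. Its 81 h readings were 5.34, 3.38, 4.61 and 4.83 in VSC_EG, 4.44, 5.17, 5.06 and 5.21 in GSC_EG and 5.93, 6.11 and 6.35 in SUS_EG, against 6.31, 5.74, 6.96 and 5.6 in EMB_EG. Its 100 h readings were 4.07, 4.17, 3.07 and 3.63 in VSC_LG, 4.22, 4.24 and 3.66 in GSC_LG, 3.65, 3.73 and 4.16 in SUS_LG and 4.56, 4.89 and 3.4 in QC_LG, against 4.69, 6.1, 5.89 and 4.45 in EMB_LG. VSC_EG and GSC_EG were wholly below EMB_EG while SUS_EG lay within its range; the gene was called in VSC_EG (-1.61, SE 0.4, adjusted p = 0.025). LHCB6 (AT1G15820) was not called, with its smallest adjusted p in VSC_EG (-1.27, adjusted p = 0.069) and its lowest estimate in SUS_LG (-1.48), and LHCB4.3 (AT2G40100), dim on these arrays, was between -0.44 and 0.10.

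The PSI core subunits encoded in the nucleus include PSAD and PSAE, which dock ferredoxin, PSAF and PSAN, which serve plastocyanin, PSAG and PSAK at the antenna side, and PSAH, PSAL and PSAO, where mobile antenna binds. PSAF (AT1G31330) had log2 intensities of 5.89, 5.6 and 6.98 in ILT_16C, against 6.71, 6.91 and 6.23 in EMB_16C at 72 h. At 81 h its arrays gave 6.1, 6.72, 6.91 and 7.04 in VSC_EG, 6.37, 6.99, 6.4 and 6.53 in GSC_EG and 6.95, 7.0 and 6.73 in SUS_EG, against 6.67, 6.63, 7.5 and 7.45 in EMB_EG. At 100 h its arrays gave 5.36, 4.7, 5.73 and 4.99 in VSC_LG, 5.29, 6.0 and 5.94 in GSC_LG, 4.28, 5.08 and 4.27 in SUS_LG and 5.14, 4.95 and 3.83 in QC_LG, against 6.87, 6.8, 7.87 and 6.96 in EMB_LG. The groups overlapped until 81 h, and at 100 h none overlapped EMB_LG. PSAF fell 5.98-fold in SUS_LG (-2.58, SE 0.36, adjusted p = 0.00017), 5.6-fold in QC_LG (-2.48) and 3.81-fold in VSC_LG (-1.93), and was at -1.38 in GSC_LG without a call.

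PSAL (AT4G12800) gave 5.37, 5.37 and 5.75 in ILT_16C, against 5.5, 6.17 and 5.35 in EMB_16C at 72 h. The 81 h arrays had 5.54, 5.96, 5.63 and 5.17 in VSC_EG, 5.77, 6.65, 5.9 and 5.7 in GSC_EG and 6.53, 6.7 and 6.64 in SUS_EG, against 6.54, 6.59, 6.95 and 5.95 in EMB_EG. The 100 h arrays had 5.94, 5.4, 5.4 and 4.82 in VSC_LG, 5.49, 5.18 and 5.37 in GSC_LG, 3.12, 5.28 and 4.99 in SUS_LG and 4.56, 4.63 and 4.76 in QC_LG, against 6.59, 6.46, 7.17 and 6.09 in EMB_LG. SUS_EG lay within the EMB_EG range and SUS_LG wholly below EMB_LG, with SUS_LG 1 at 3.12; the gene fell in SUS_LG (-2.11, SE 0.36, adjusted p = 0.0023) and QC_LG (-1.92).

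PSAG (AT1G55670) gave 6.47, 4.88 and 6.01 in ILT_16C, against 6.08, 6.86 and 5.94 in EMB_16C at 72 h. Its 81 h values were 6.09, 5.96, 5.78 and 6.18 in VSC_EG, 6.04, 6.75, 6.43 and 6.61 in GSC_EG and 6.7, 6.78 and 6.7 in SUS_EG, against 6.88, 6.53, 7.28 and 7.55 in EMB_EG. Its 100 h values were 4.32, 4.76, 5.78 and 5.61 in VSC_LG, 5.48, 4.05 and 4.7 in GSC_LG, 4.03, 5.31 and 3.96 in SUS_LG and 4.86, 4.71 and 4.43 in QC_LG, against 5.82, 6.87, 6.86 and 6.8 in EMB_LG. The SUS_EG arrays lay within 0.08 of one another and inside the EMB_EG range, and at 100 h all cell type arrays were below EMB_LG. PSAG fell in VSC_LG (-1.47), GSC_LG (-1.84), SUS_LG (-2.15, SE 0.39, adjusted p = 0.0041) and QC_LG (-1.92).

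PSAK (AT1G30380) is shown in full because it had the most calls, a choice made after its values were seen. It had 4.09, 4.13 and 4.92 in ILT_16C, against 6.99, 6.96 and 6.68 in EMB_16C at 72 h. At 81 h it was 5.63, 4.46, 5.8 and 4.52 in VSC_EG, 4.99, 6.6, 5.75 and 5.37 in GSC_EG and 5.56, 6.51 and 6.9 in SUS_EG, against 7.04, 6.62, 7.03 and 7.93 in EMB_EG. At 100 h it was 3.27, 3.66, 4.23 and 4.77 in VSC_LG, 3.73, 4.88 and 4.23 in GSC_LG, 4.31, 4.62 and 4.65 in SUS_LG and 3.72, 3.48 and 5.14 in QC_LG, against 6.38, 5.79, 6.1 and 6.81 in EMB_LG. The ILT_16C arrays were all below EMB_16C, and PSAK was the 1 gene of the 42 called at 72 h (-2.5, SE 0.47, adjusted p = 0.013). It was also lower in VSC_EG (-2.05), VSC_LG (-2.29), GSC_LG (-1.99), SUS_LG (-1.74) and QC_LG (-2.15).

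Of the other PSI core genes, PSAE-1 (AT4G28750) was called in all 4 cell types, at -2.22 in VSC_LG, -1.8 in GSC_LG, -1.88 in SUS_LG and -2.21 in QC_LG, and at 81 h in VSC_EG (-1.43). PSAD-1 (AT4G02770) was lower in GSC_LG (-2.73), SUS_LG (-2.79) and QC_LG (-2.85), and PSAN (AT5G64040) in VSC_LG (-1.67) and QC_LG (-2.21). PSAO (AT1G08380) and PSAH-1 (AT3G16140) were called in QC_LG (-2.91 and -1.53). PSAH-2 (AT1G52230), PSAE-2 (AT2G20260) and PSAD-2 (AT1G03130) were not called, with lowest estimates of -1.7, -1.75 and -0.91.

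The oxygen-evolving complex is shielded on the lumen side by PSBO, PSBP and PSBQ, of which PSBO stabilises the manganese cluster. PSBO1 (AT5G66570) had 7.0, 5.99 and 6.85 in ILT_16C, against 7.02, 7.16 and 7.37 in EMB_16C at 72 h. At 81 h the values were 6.95, 6.51, 6.85 and 6.42 in VSC_EG, 6.53, 7.25, 7.23 and 6.38 in GSC_EG and 7.14, 7.39 and 6.99 in SUS_EG, against 8.09, 8.2, 8.45 and 8.29 in EMB_EG. At 100 h the values were 6.49, 5.19, 4.87 and 5.98 in VSC_LG, 5.67, 5.99 and 6.69 in GSC_LG, 5.09, 6.26 and 5.85 in SUS_LG and 6.46, 4.11 and 4.67 in QC_LG, against 6.94, 7.3, 7.35 and 7.64 in EMB_LG. The cell type arrays were below the whole embryo of their stage throughout, and the 4 EMB_EG arrays were above all others. PSBO1 fell in VSC_EG (-1.57), VSC_LG (-1.68), SUS_LG (-1.57) and QC_LG (-2.23, SE 0.4, adjusted p = 0.0025).

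PSBO2 (AT3G50820) had 3.92, 3.94 and 2.68 in ILT_16C, against 4.18, 5.64 and 3.15 in EMB_16C at 72 h. The 81 h series was 3.74, 3.88, 4.05 and 4.48 in VSC_EG, 5.13, 5.27, 4.89 and 4.3 in GSC_EG and 4.62, 4.78 and 6.04 in SUS_EG, against 5.58, 6.48, 5.13 and 5.57 in EMB_EG. The 100 h series was 3.43, 2.63, 2.33 and 5.4 in VSC_LG, 2.99, 2.51 and 2.56 in GSC_LG, 3.37, 3.52 and 2.49 in SUS_LG and 3.06, 2.31 and 2.56 in QC_LG, against 5.83, 5.29, 5.1 and 5.2 in EMB_LG. VSC_LG 4, at 5.4, lay inside the EMB_LG range while the other 12 cell type arrays were at 3.52 or below. PSBO2 fell in GSC_LG (-2.66, SE 0.53, adjusted p = 0.012), SUS_LG (-2.23) and QC_LG (-2.71), and was at -1.91 in VSC_LG.

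PSBP-1 (AT1G06680) had 4.81, 5.56 and 5.14 in ILT_16C, against 4.91, 6.12 and 5.86 in EMB_16C at 72 h. It measured 5.06, 5.0, 5.15 and 5.31 in VSC_EG, 4.45, 5.19, 5.35 and 5.19 in GSC_EG and 6.06, 5.81 and 6.38 in SUS_EG, against 6.07, 6.23, 6.81 and 6.55 in EMB_EG at 81 h. It measured 4.77, 4.07, 4.14 and 4.33 in VSC_LG, 4.28, 4.24 and 5.43 in GSC_LG, 4.01, 4.49 and 4.21 in SUS_LG and 4.36, 4.53 and 2.99 in QC_LG, against 5.92, 5.7, 5.41 and 5.26 in EMB_LG at 100 h. VSC_EG and GSC_EG were wholly below EMB_EG and SUS_EG overlapped it; the gene fell in VSC_EG (-1.28), GSC_EG (-1.37, SE 0.32, adjusted p = 0.023), SUS_LG (-1.33) and QC_LG (-1.61). PSBQ-1 (AT4G21280) and PSBQ-2 (AT4G05180) were not called, with lowest estimates of -2.16 in GSC_LG and -1.64 in SUS_LG.

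Among the small PSII subunits, PSBR takes part in the stable binding of PSBP, PSBW in the association of antenna and core, and PSBX and PSBY sit at the edge of the core. PSBR (AT1G79040) had 5.79, 6.58 and 5.45 in ILT_16C, against 6.52, 6.53 and 5.71 in EMB_16C at 72 h. Its values at 81 h were 6.91, 5.94, 6.34 and 4.79 in VSC_EG, 5.95, 6.74, 5.81 and 5.74 in GSC_EG and 6.23, 6.74 and 6.92 in SUS_EG, against 7.27, 6.78, 7.43 and 7.72 in EMB_EG. Its values at 100 h were 4.75, 4.84, 5.38 and 5.24 in VSC_LG, 5.43, 5.29 and 4.96 in GSC_LG, 4.38, 4.86 and 5.01 in SUS_LG and 4.36, 4.92 and 4.23 in QC_LG, against 6.55, 6.6, 7.03 and 7.25 in EMB_LG. At 100 h no array overlapped EMB_LG. PSBR fell in VSC_EG (-1.31) and in all 4 cell types at 100 h, by 3.5-fold in VSC_LG, 3.1-fold in GSC_LG, 4.32-fold in SUS_LG and 5.13-fold in QC_LG (-2.36, SE 0.37, adjusted p = 0.00047).

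PSBX (AT2G06520) had 5.67, 4.8 and 6.07 in ILT_16C, against 7.14, 7.08 and 7.23 in EMB_16C at 72 h. At 81 h it showed 7.03, 7.46, 5.92 and 6.7 in VSC_EG, 6.91, 6.94, 6.16 and 6.8 in GSC_EG and 7.85, 7.14 and 8.27 in SUS_EG, against 7.09, 6.9, 8.24 and 6.52 in EMB_EG. At 100 h it showed 5.44, 4.09, 6.19 and 5.35 in VSC_LG, 5.68, 7.03 and 6.1 in GSC_LG, 5.15, 6.16 and 6.14 in SUS_LG and 5.51, 2.38 and 4.75 in QC_LG, against 7.24, 7.33, 7.39 and 7.73 in EMB_LG. The suspensor lay high at 81 h, with SUS_EG 3 above all EMB_EG arrays, and QC_LG spread from 2.38 to 5.51. PSBX fell in VSC_LG (-2.15) and QC_LG (-3.21, SE 0.52, adjusted p = 0.00073).

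PSBW (AT2G30570) had 6.68, 6.8 and 5.98 in ILT_16C, against 7.49, 7.13 and 7.19 in EMB_16C at 72 h. In the 81 h groups it had 6.02, 5.31, 7.53 and 6.46 in VSC_EG, 5.8, 6.71, 6.78 and 6.8 in GSC_EG and 6.74, 6.55 and 6.93 in SUS_EG, against 8.04, 7.99, 8.08 and 8.61 in EMB_EG. In the 100 h groups it had 5.58, 4.88, 5.79 and 6.79 in VSC_LG, 5.88, 6.7 and 5.35 in GSC_LG, 5.61, 5.79 and 5.14 in SUS_LG and 5.79, 4.48 and 6.33 in QC_LG, against 7.13, 7.4, 7.54 and 6.95 in EMB_LG. No cell type array overlapped the whole embryo of its stage. PSBW fell in VSC_EG (-1.85, SE 0.4, adjusted p = 0.011), GSC_EG (-1.66), SUS_LG (-1.74) and QC_LG (-1.72). PSBY (AT1G67740) was called in QC_LG alone among the 8 comparisons (-1.32, adjusted p = 0.032).

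PSBS (AT1G44575) is the PSII protein needed for the rapid dissipation of excess light energy as heat. It had 4.08, 3.96 and 3.47 in ILT_16C, against 5.0, 4.79 and 4.96 in EMB_16C at 72 h. In the 81 h arrays it was 4.13, 3.65, 3.72 and 3.53 in VSC_EG, 4.12, 4.92, 5.08 and 4.79 in GSC_EG and 4.68, 4.6 and 5.31 in SUS_EG, against 5.49, 5.38, 5.48 and 5.12 in EMB_EG. In the 100 h arrays it was 3.32, 2.73, 3.04 and 3.14 in VSC_LG, 3.25, 3.62 and 3.9 in GSC_LG, 3.63, 3.95 and 2.6 in SUS_LG and 3.43, 3.04 and 2.41 in QC_LG, against 4.6, 4.44, 4.84 and 4.08 in EMB_LG. It overlapped the whole embryo in SUS_EG and in no other cell type, and fell in VSC_EG (-1.61, SE 0.28, adjusted p = 0.0019), VSC_LG (-1.43) and QC_LG (-1.53).

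**Figure D3:**
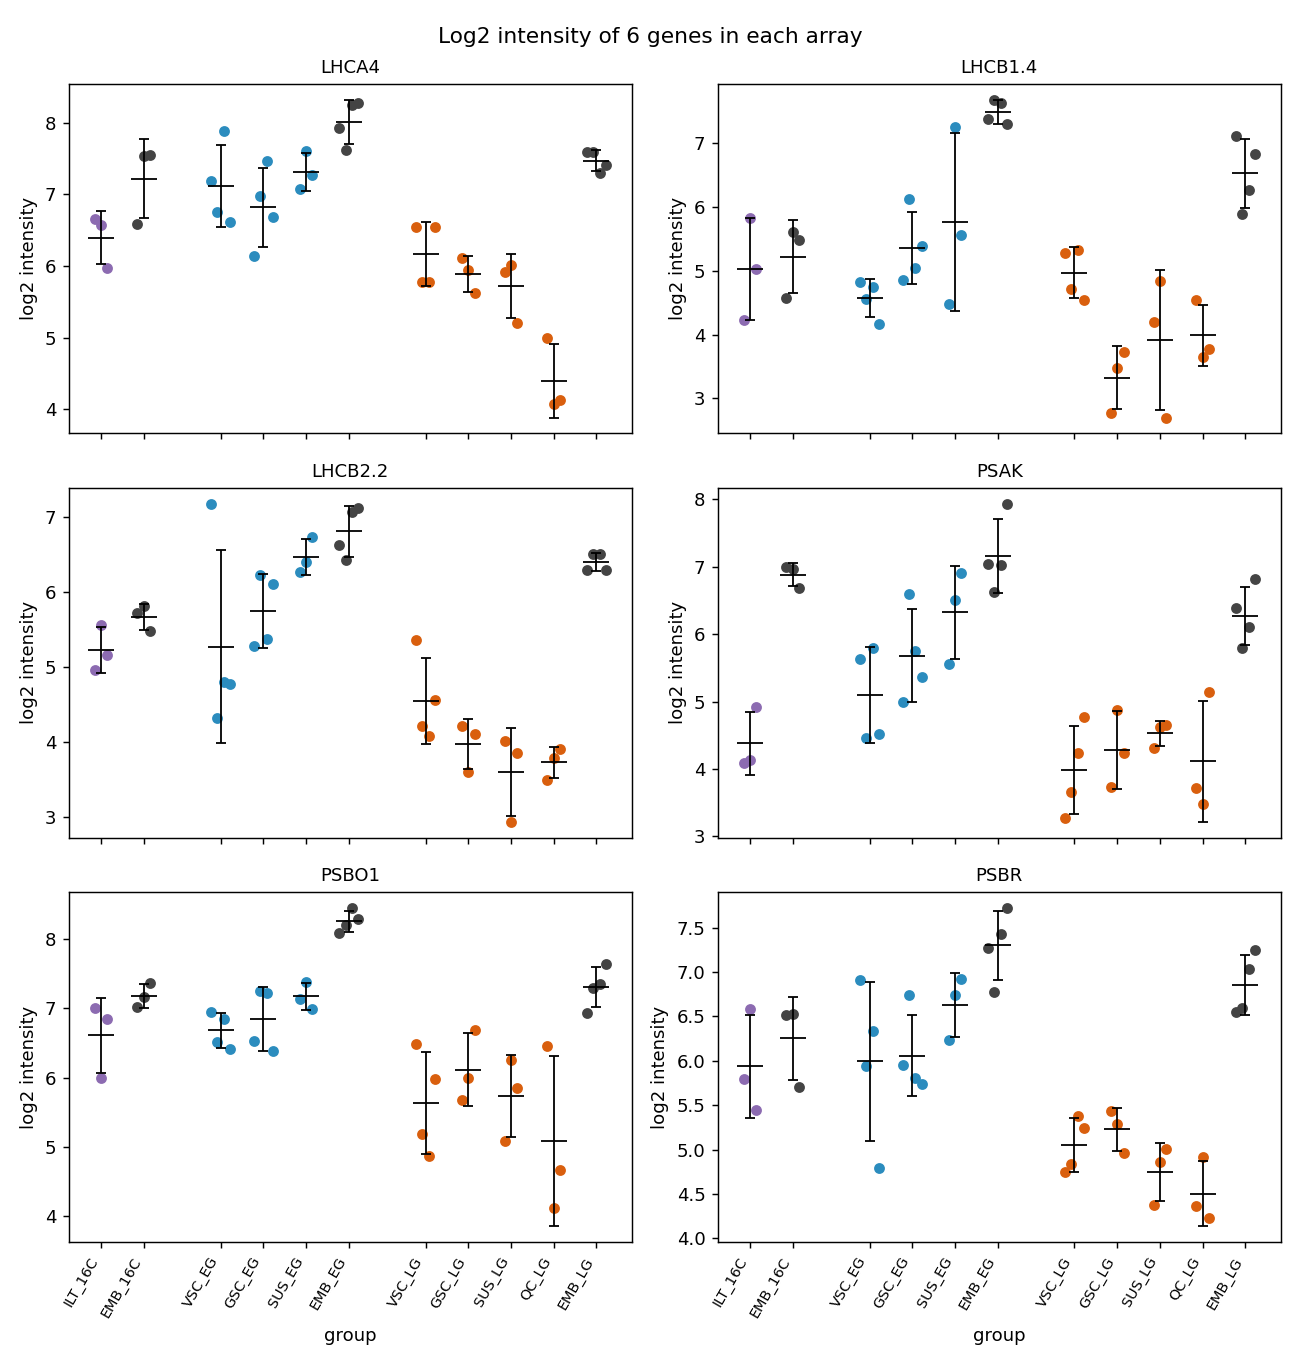
Points are log2 intensities of 6 genes with 4 to 6 calls in single arrays, by group in the order 72 h, 81 h and 100 h, with group means and SDs in black. All 6 genes are lower in every 100 h cell type array than in the lowest EMB_LG array, while at 81 h LHCA4, LHCB2.2 and PSBR in vascular cells overlap EMB_EG.

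Genes that encode near-identical proteins were set side by side, since their probe sets may share targets. Over the 38 arrays, which share the group differences above, the correlation was 0.2 between LHCB1.1 and LHCB1.2, 0.44 between LHCB1.2 and LHCB1.3, 0.64 between LHCB1.4 and LHCB1.5 and 0.72 between PSBO1 and PSBO2. LHCB1.1 lies between LHCB1.2 and LHCB1.3 on chromosome 1 with no other gene of the table between them. In GSC_LG the differences from EMB_LG were -0.81 for LHCB1.1, -2.08 for LHCB1.2 and -0.63 for LHCB1.3, and in QC_LG they were -0.17, -2.11 and -2.26 for the same genes. PSAD-1 and PSAD-2 stood at -2.79 and -0.27 in SUS_LG, PSAE-1 and PSAE-2 at -1.88 and -1.75. LHCB2.2 and LHCB2.1 stood at -2.43 and -0.49 in GSC_LG. The differences between such partners were not tested.

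Members with no call were in part dim. LHCA1, LHCA5, LHCB1.1, LHCB4.3 and PSAD-2 had mean intensities between the 45.4th and the 57.8th percentile of all loci. The correlation of a gene with the mean of the other 41 over the 38 arrays ran from 0.18 (LHCA1), 0.27 (LHCB1.1) and 0.34 (LHCB4.3) to 0.91 (LHCB2.2 and PSBR), as a description of how they varied together. LHCB2.1, at the 90.2th percentile of mean intensity, was at 0.50. The lowest group mean was QC_LG for 22 genes, SUS_LG for 10, GSC_LG for 7 and VSC_LG for 3, and the highest was EMB_EG for 26.

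In the whole embryo itself 1 of the 42 genes was called between stages. Between the early globular and the 16-cell stage LHCB1.4 rose (2.27, SE 0.48, adjusted p = 0.034), at 7.49 ± 0.19 in EMB_EG (SD, n = 4) and 5.22 ± 0.57 in EMB_16C (n = 3). It was 1 of 42 genes called, where 0.129% of all loci were called higher; the median was 0.65 and 36 of 42 estimates were above 0. Without EMB_16C 1, EMB_16C 3, EMB_EG 1, EMB_EG 2 or EMB_EG 3, or with only the compared arrays fitted, it was not called. EMB_LG against EMB_EG had 0 of 42 called by limma, where 0.0647% of all loci were called lower, with 8 at an unadjusted p under 0.05, all lower, and a median of -0.43.

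Many of the genes were lower in the older suspensor. At 100 h 17 of 42 genes were lower in SUS_LG than in SUS_EG, where 0.313% of all loci were called lower, with a median of -1.72 beside 0.03 for all loci. The mean of the 42 genes was 4.02 ± 0.25 in SUS_LG and 5.63 ± 0.24 in SUS_EG (SD, n = 3 each), and the arrays did not overlap for 31 genes (6.14% of all loci). LHCB2.2 fell 7.27-fold (-2.86, SE 0.45, adjusted p = 0.00067), at 3.6 ± 0.58 in SUS_LG and 6.46 ± 0.24 in SUS_EG, and PSAF fell 5.09-fold (-2.35, SE 0.39, adjusted p = 0.0016). Also called were LHCA2 (-2.46), LHCA3, LHCA4, LHCB3 (-2.58), LHCB4.1 (-2.29), LHCB4.2, LHCB5, PSAE-1 (-2.31), PSAE-2 (-2.61), PSAG (-2.3), PSAL (-2.16), PSBP-1, PSBQ-2 (-2.31), PSBR and PSBS. The count was 3 without SUS_LG 1, 5 without SUS_EG 2 or SUS_EG 3, 8 without SUS_LG 3, 10 after quantile normalization and 5 when only the compared arrays were fitted.

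Whether the suspensor's difference from the whole embryo itself changed between 81 h and 100 h was tested as an interaction. All 42 estimates were below 0, with a median of -1.09, and 0 were called by limma (1 with array weights), where 0.00719% of all loci were called lower. At an unadjusted p under 0.05 there were 22 genes, a count given as description only. PSAF had the smallest adjusted p (-2.41, 95% interval -3.45 to -1.37, adjusted p = 0.1), with SUS_LG 2.58 below EMB_LG and SUS_EG 0.17 below EMB_EG. PSAE-2 changed sides, at -1.75 in SUS_LG and 1.02 in SUS_EG (interaction -2.77, adjusted p = 0.2). The test for vascular cells (median -0.32, 4 genes at an unadjusted p under 0.05) and ground tissue (median -0.69, 5 genes) also gave 0 calls of 42, where 0% of all loci were called. The 2 loci called for the suspensor were RBCS1B and the heat shock gene HSP70 (AT3G12580, -4.34, adjusted p = 0.038). HSP70 was itself lower in SUS_LG than in SUS_EG (-3.89), as was the heat shock factor HSFA2 (AT2G26150, -2.53), and their part in the suspensor result was not tested.

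**Figure D4:**
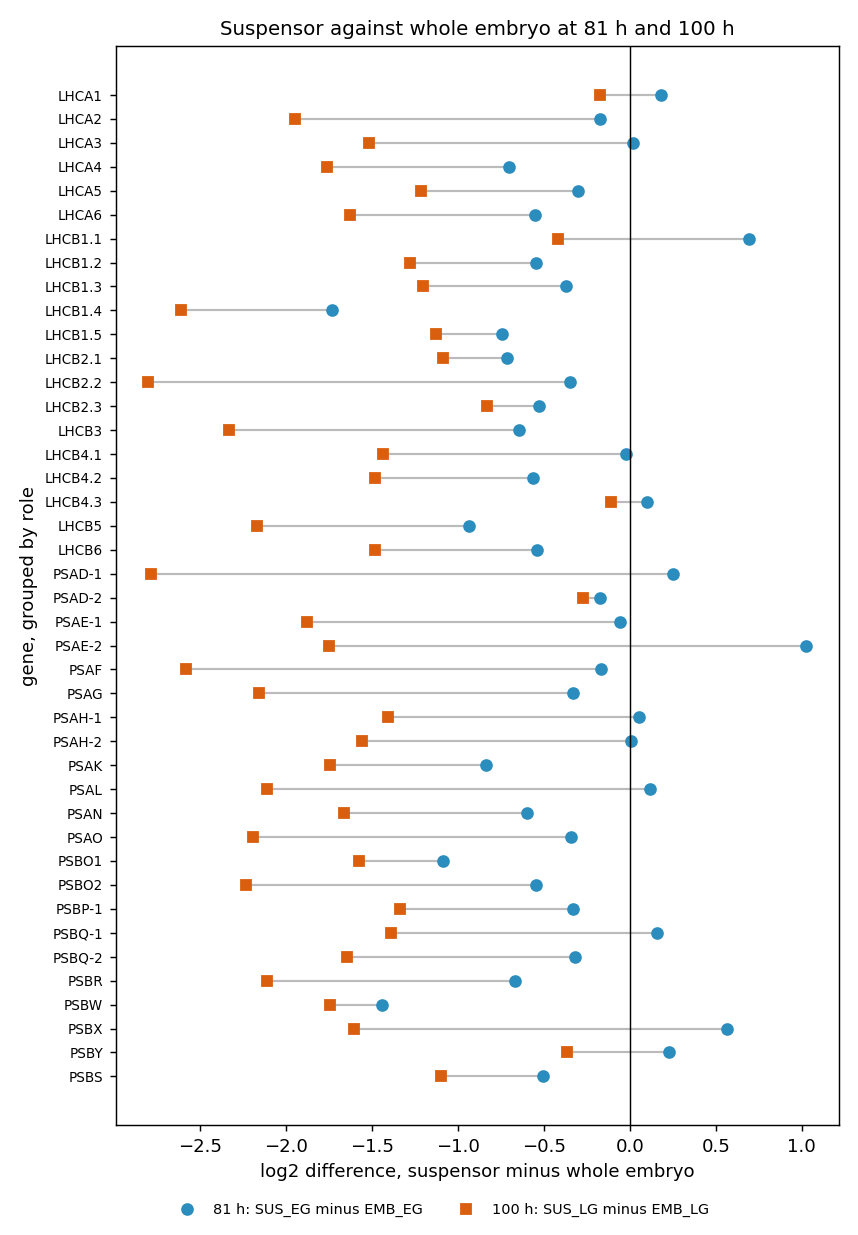
For each of the 42 genes, grouped by role, the log2 difference between suspensor and whole embryo is shown at 81 h (circles) and 100 h (squares), joined by a line. The squares lie left of the circles for all 42 genes, with medians of -1.59 at 100 h and -0.34 at 81 h.

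Vascular cells and ground tissue also had lower values at the later stage. VSC_LG had 2 genes called lower than VSC_EG, where 0.5% of all loci were: PSAF (-1.5, adjusted p = 0.020) and PSAN (-1.64). The median was -0.71; 0 were called without VSC_EG 2, VSC_EG 3, VSC_LG 2 or VSC_LG 4, and 1 without VSC_EG 1 or VSC_LG 3, after quantile normalization or with only the compared arrays fitted. GSC_LG had 6 genes called lower than GSC_EG, where 0.528% of all loci were: LHCB1.4 (-2.03), LHCB2.2 (-1.77), PSAG (-1.71), PSBO2 (-2.21), PSBQ-2 (-2.07) and PSBS (-1.13). The median was -0.93; 0 were called without GSC_EG 2 or GSC_LG 2, 1 without GSC_LG 3 and 2 after quantile normalization.

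Between cell types of 1 stage few differences were resolved. QC_LG against GSC_LG had 3 genes called lower, where 1.92% of all loci were: LHCA4 (-1.49, adjusted p = 0.018), LHCB5 (-1.47) and PSBX (-2.06). All 3 are among the 2783 brightest loci, of which 7.8% were called lower in this comparison, with a median of -0.62 beside -0.3 for the 42 genes. QC_LG against VSC_LG had 1, where 0.0288% were, LHCA4, with 4.4 ± 0.51 in QC_LG (SD, n = 3) and 6.16 ± 0.45 in VSC_LG (n = 4) (-1.76, SE 0.34, adjusted p = 0.031). The first count was 0 without GSC_LG 2 or QC_LG 2, after quantile normalization, with the interquartile range as a covariate or with only the compared arrays fitted, and 1 without GSC_LG 1 or with array weights. LHCA4 was not called against VSC_LG without VSC_LG 1, VSC_LG 4, QC_LG 2 or QC_LG 3, with array weights or with only the compared arrays fitted.

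The other 7 pairs had 0 of 42 called by limma. The share of all loci called in either direction was 0.0575% for SUS_EG against VSC_EG, 0.0252% for SUS_EG against GSC_EG, 0.74% for VSC_EG against GSC_EG, 1.24% for VSC_LG against GSC_LG, 0.0144% for SUS_LG against VSC_LG, 1.24% for SUS_LG against GSC_LG and 0.101% for QC_LG against SUS_LG. SUS_EG lay above VSC_EG for 37 of 42 genes, with a median of 0.7, 14 genes at an unadjusted p under 0.05 and 13 with all arrays above (4.54% of all loci); without VSC_EG 1, 3 were called, and 2 with array weights. At an unadjusted p under 0.05 the remaining 6 pairs had 2 to 7 genes. Some calls appeared when 1 array was left out: 2 for VSC_EG against GSC_EG without VSC_EG 1, 1 for VSC_LG against GSC_LG without VSC_LG 4 (2 with array weights) and 1 for SUS_LG against GSC_LG without SUS_LG 3.

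Other chloroplast genes moved to different extents. Of all loci 1.19% were called lower in VSC_EG, 0.428% in GSC_EG, 0.374% in VSC_LG, 0.133% in GSC_LG, 0.428% in SUS_LG and 0.765% in QC_LG. The counts of the lists below were not checked by leaving out arrays or by other settings. Of 18 carbon fixation genes 6 were lower in QC_LG and 5 in SUS_LG, with medians of -1.13 and -0.9; those of smallest adjusted p in QC_LG were RBCS1B (AT5G38430, -5.41), RBCS1A (AT1G67090, -2.1), which encode Rubisco small subunits, and RCA (AT2G39730, -2.21), the Rubisco activase. RBCS1B has near-identical copies, so its probe set is uncertain. The gene was also the 1 of the 18 whose suspensor difference changed between 81 h and 100 h (-5.08, adjusted p = 0.0098). At 81 h CP12-2 (AT3G62410), a regulator of the Calvin cycle, was the exception in direction, higher in SUS_EG than in EMB_EG (2.22, adjusted p = 0.0099), and it was lower in ILT_16C than in EMB_16C (-2.32). VSC_EG had 4 carbon fixation genes lower, GSC_EG 2, VSC_LG 3 and GSC_LG 1.

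Of 16 chlorophyll synthesis genes 4 were lower in VSC_EG, 1 in GSC_EG, 3 in VSC_LG, 1 in GSC_LG, 4 in SUS_LG and 3 in QC_LG. CHLM (AT4G25080), a methyltransferase of the magnesium branch, fell in VSC_EG (-1.6), VSC_LG (-1.96), SUS_LG (-2.08) and QC_LG (-2.65, adjusted p = 9.1e-05). CHL27 (AT3G56940) of the cyclase was lower in VSC_LG (-1.55), GSC_LG (-1.52), SUS_LG (-1.6) and QC_LG (-1.89), and CAO (AT1G44446), which makes chlorophyll b, in VSC_EG (-1.26) and GSC_EG (-1.29). PORB (AT4G27440), the light-dependent reductase, was lower in SUS_LG than in SUS_EG (-3.27, adjusted p = 0.00062).

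Of 13 electron transport and ATP synthase genes 5 were lower in QC_LG and 1 each in VSC_LG and SUS_LG. PETC (AT4G03280), the Rieske protein, was the call in VSC_LG (-2.13) and SUS_LG (-2.04), and PDE334 (AT4G32260) and FD1 (AT1G10960), a ferredoxin, fell in QC_LG (-2.25 and -2.74). Of 14 genes of antenna import and photosystem assembly 2 were lower in VSC_EG and QC_LG and 1 in GSC_EG and VSC_LG, among them PSB27 (AT1G03600), which assists PSII assembly (-2.18 in QC_LG), and LTD (AT1G50900), which guides antenna proteins to the thylakoid (-2.03 in QC_LG).

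The regulators did not pass. Of 18 light and chloroplast regulators 0 were called by limma in the 8 comparisons with the whole embryo. List medians lay between -0.25 and -0.05. The list was dim, averaging between 2.678 (QC_LG) and 2.985 (EMB_EG), where array medians lay between 2.47 and 2.71. A fall near that level may not be resolved. GLK2 (AT5G44190), which with GLK1 activates antenna and chlorophyll genes, averaged 2.24 in QC_LG against 3.32 in EMB_LG (-1.08, adjusted p = 0.18), and 2.75 in SUS_EG against 3.9 in EMB_EG (-1.16, adjusted p = 0.32). GLK1 (AT2G20570) averaged 2.35 in QC_LG and 2.18 in EMB_LG (0.17, adjusted p = 0.93), below the median of every array.

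**Figure D5:**
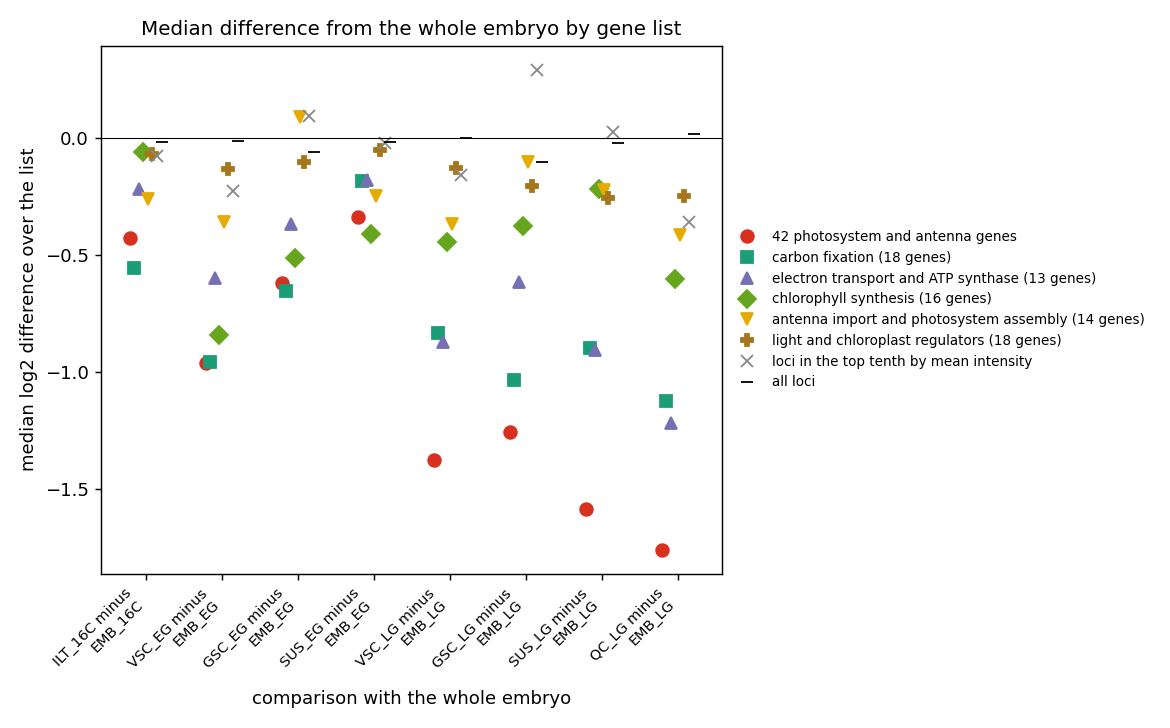
Medians of the log2 differences from the whole embryo are plotted by gene list for the 8 comparisons, beside all loci and the 2783 brightest loci. The 42 photosystem and antenna genes have the lowest median of the lists plotted at 100 h (-1.26 to -1.76). In QC_LG psbA and psbE, not plotted, were at -1.61 and -2.76. The regulators, dim on these arrays, lie between -0.25 and -0.05 throughout.

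Several other measures moved with the cell type groups. The 12 stress response genes averaged higher in every cell type than in the whole embryo of its stage, at 4.02 ± 0.45 in QC_LG, 4.58 ± 0.27 in SUS_LG, 4.73 ± 0.46 in GSC_LG (SD, n = 3 each) and 5.11 ± 0.73 in VSC_LG (n = 4), against 3.19 ± 0.16 in EMB_LG (n = 4). GSC_EG (5.94 ± 0.21, n = 4) and SUS_EG (5.61 ± 0.34, n = 3) had the widest gap to EMB_EG (3.37 ± 0.17, n = 4). In GSC_EG 8 of the 12 were called higher, where 0.697% of all loci were. In SUS_EG 5 were called higher, where 0.126% of all loci were. The part of the stress response genes in the result was not tested.

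The plastid-encoded PSII genes psbA and psbE, 2 of a list of 14 that are in the table, were called lower in QC_LG and, for psbE, in SUS_LG. Together they averaged 8.53 in QC_LG, with arrays between 6.9 (QC_LG 2) and 10.1 (QC_LG 1), 9.32 in SUS_LG, 10.02 in GSC_LG and 9.66 in VSC_LG, against 10.7 in EMB_LG. The differences from EMB_LG were -1.61 for psbA and -2.76 for psbE in QC_LG, and -2.07 for psbE in SUS_LG (adjusted p = 0.017). Within QC_LG the SD was 1.3 for psbA and 1.93 for psbE. The SEs behind those 2 calls, 0.32 and 0.45, rest on the spread pooled over all groups. Their part in the result was not tested. At 81 h they averaged 10.6 in VSC_EG, 10.7 in GSC_EG and 10.8 in SUS_EG, against 10.7 in EMB_EG.

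Of 13 seed coat markers all 13 estimates were above 0 in SUS_LG, as were 13374 of the 27826 loci. Called higher were 2 of the 13, TT8 (1.98) and TT2 (2.5), where 0.539% of all loci were. The list averaged 5.64 (5.25 to 6.02) in SUS_LG against 4.69 (4.43 to 4.87) in EMB_LG. In GSC_LG the list averaged 4.24 (4.13 to 4.41), below EMB_LG. The 10 endosperm markers averaged between 2.09 and 2.48 in every group, with 0 called by limma. Over the 11 groups the seed coat markers averaged between 4.24 (GSC_LG) and 5.64 (SUS_LG), where array medians lay between 2.47 and 2.71. The part of maternal or endosperm RNA in the results of any group, the whole embryo included, was not tested.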

How the data were processed

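Nuclear RNA of 38 arrays in 11 groups was analysed. The deposited values are linear intensities; the submitters' processing notes name RMA as the authors' tool, with no version, and the sources used here do not give the probe set definition. The number of arrays limits the precision. The log2 of each intensity was taken with no added constant. One linear model with 11 group means was fitted to the 27826 loci and 38 arrays with limma 3.58.1 (R 4.3.3; lmFit and eBayes, 27 residual degrees of freedom), and adjusted p-values (Benjamini-Hochberg, two-sided) cover all loci of a comparison. Any p-value with a small n in the text is this fit's. The script was tested on simulated data. Figures were drawn with matplotlib 3.10.9. Alternatives were quantile normalization, centring, a filter on dim loci, array weights, the interquartile range as covariate, the replicate block, fits of the compared groups alone, and leaving out each array.

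The 42 genes and the other gene lists were chosen with earlier results of these data known. Genes with values in every array are, per role, up to 3 called genes of smallest adjusted p in the 8 comparisons with the whole embryo, and from other lists up to 3 called genes per comparison, with GLK1 and GLK2 always. PSAK, further called genes of other lists, the 2783 brightest loci and the 6 genes plotted by array were chosen after values were seen. Sequences and promoters were not used here.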

Additional observations from a re-analysis of the deposited data

Results flagged for a closer look

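In groups of 4 arrays, 10 of 215 values tested had 1 array whose gap to the others passed Dixon's 95% critical value, and chance gives about 1 such value in 20. Vascular arrays gave 3 of them. LHCB2.2 was at 7.17 in VSC_EG 1, against 4.32 to 4.80 in the other arrays of the group. LHCB1.3 was at 3.79 in VSC_LG 2, against 6.43 to 6.85, and the mean of the 42 genes in the same array was 4.00, against 4.39 to 4.41. In ground tissue PSBW was at 5.80 in GSC_EG 1, against 6.71 to 6.80.

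The other 6 were whole-embryo arrays. In EMB_EG 4, LHCB4.2 was at 5.32, against 4.65 to 4.75 in the other arrays, and PSBW at 8.61, against 7.99 to 8.08. In EMB_LG 3, LHCB4.2 was at 5.26, against 3.93 to 4.15, and PSAF at 7.87, against 6.80 to 6.96. LHCB3 was at 5.17 in EMB_LG 4, against 6.07 to 6.21, and PSAG at 5.82 in EMB_LG 1, against 6.80 to 6.87.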

How the results depend on the processing

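Of the 113 pairs of gene and comparison called, 0 changed direction in any setting run and 23 kept their call in all of them. Against the whole embryo, LHCB2.2, LHCB5, PSAF and PSBR in SUS_LG kept theirs in all 14 settings. PSBO1 and PSBP-1 in SUS_LG and PSAE-1 in GSC_LG kept theirs in 4 of 14. The calls kept were 113 without dim loci, 107 with centring or array weights and 98 with the interquartile range as covariate. They were 89 after quantile normalization and 45 when only the compared groups were fitted. That last setting fits fewer arrays. The cause of these changes and of those below was not tested.

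With only the compared groups fitted, the counts were 0 for ILT_16C, 6 for VSC_EG, 3 for GSC_EG, 6 for GSC_LG, 9 for SUS_LG and 7 for QC_LG against the whole embryo, 0 for EMB_EG against EMB_16C, 1 for VSC_LG against VSC_EG, 5 for SUS_LG against SUS_EG, and 0 for QC_LG against VSC_LG or GSC_LG. After quantile normalization they were 7 for VSC_EG against EMB_EG, 1, 2 and 10 for the later against the earlier vascular, ground and suspensor groups, and 0 for QC_LG against GSC_LG; medians were -1.452 for GSC_LG against EMB_LG, 0.294 for VSC_LG against GSC_LG and -0.1154 for QC_LG against GSC_LG. With array weights the counts were 11 for GSC_EG and 21 for VSC_LG against the whole embryo, 2 for SUS_EG against VSC_EG, 2 for VSC_LG against GSC_LG, 0 and 1 for QC_LG against VSC_LG and GSC_LG, and 1 for the change of the suspensor difference. With the interquartile range as covariate they were 1 for GSC_LG against EMB_LG and 0 for QC_LG against GSC_LG (median -0.4581). The median of all loci for QC_LG against GSC_LG was 0.12 as deposited and 0.02 after quantile normalization.

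Leaving out each array in turn gave counts against the whole embryo of 1 for ILT_16C, 4 to 11 for VSC_EG, 1 to 6 for GSC_EG, 0 to 1 for SUS_EG, 5 to 13 for VSC_LG, 3 to 9 for GSC_LG, 7 to 12 for SUS_LG and 17 to 25 for QC_LG. Between stages they were 0 to 1 for EMB_EG against EMB_16C, 0 to 3 for vascular cells, 0 to 5 for ground tissue and 3 to 14 for the suspensor. Between cell types they were 0 to 2 for VSC_EG against GSC_EG, 0 to 3 for SUS_EG against VSC_EG, 0 to 1 for VSC_LG or SUS_LG against GSC_LG, 0 to 1 for QC_LG against VSC_LG and 0 to 3 for QC_LG against GSC_LG. Medians ran from -0.5854 to -0.2342 for ILT_16C, from -0.464 to -0.347 for QC_LG against GSC_LG and from -1.363 to -1.010 for the change of the suspensor difference.

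Replicate numbers are shared between groups but did not pair the arrays: once group means were removed, same-numbered arrays of different groups had a median correlation of -0.0014, and in 0 of 22 comparisons was every pair over 0.1. With the replicate block 102 of the 113 calls were kept, and the counts against the whole embryo were 11 for VSC_EG, 5 for GSC_EG, 13 for VSC_LG, 10 for GSC_LG, 16 for SUS_LG and 25 for QC_LG.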
